A study of Homo sapiens with 4 samples.

Results

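The ADAM, ADAMTS, MMP and TIMP genes encode the zinc proteases that cut cell surface and matrix proteins, together with the inhibitors that block them. They were taken as every probe whose gene symbol starts with one of those names followed by a digit, which gave 113 probes of 71 genes among the 47321 probes of the array and the 20046 genes with a symbol of their own. The genes were 24 ADAM, 19 ADAMTS, 24 MMP and 4 TIMP genes. Of these 64 are annotated as protein coding, 6 as transcribed pseudogenes and 1, *ADAMTS16-DT*, as a long noncoding RNA. A further 7 ADAM genes, among them *ADAM2* and *ADAM22*, code for proteins without a catalytic zinc site. They are counted with the protease genes here. HCT116 is a human colorectal cancer line. HCT116-WT and HCT116-MT are untreated sublines in which the other *CTNNB1* allele was disrupted, so HCT116-WT holds a single wild-type allele and HCT116-MT a single mutant allele (Ser45 deletion) of the gene for β-catenin. RNA of 2 samples of each line was measured, 1 array per sample, to find expression that goes with the allele. Each line carries 1 allele state, so the allele cannot be told apart from any other difference between the sublines. Nothing in the labels or methods tells if both samples of 1 line were separate cultures, and the p-values below cover only how far the arrays spread, which could be technical.

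MMPs are secreted or membrane-anchored enzymes that degrade collagens, gelatins and other matrix proteins. ADAMs sit in the cell membrane and release the outer parts of growth factors, cytokines and adhesion proteins, while ADAMTS enzymes are secreted and act on procollagens, proteoglycans and von Willebrand factor. TIMPs bind the active site of MMPs and of some ADAMs. In intestinal tumors, matrilysin (*MMP7*) is a classical target of β-catenin with TCF, and several MMP promoters carry AP-1 sites, which bind FOS and JUN proteins.

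Most of the family was not detected in either line. A probe was called detected on an array where its detection p-value, which compares it with the negative controls of that array, was under 0.05, and it was kept for testing when detected on at least 2 of the 4 arrays. This kept 28 of the 113 protease probes (24.8%), against 43.5% of all probes, and 21 of the 71 genes (29.6%), against 59.2% of all genes. The detected genes were 8 ADAM genes (*ADAM2*, *ADAM9*, *ADAM10*, *ADAM15*, *ADAM17*, *ADAM19*, *ADAM21* and *ADAM22*), 3 ADAMTS genes (*ADAMTS2*, *ADAMTS6* and *ADAMTS13*), 8 MMP genes (*MMP1*, *MMP8*, *MMP9*, *MMP10*, *MMP11*, *MMP15*, *MMP23B* and *MMP28*), *TIMP1* and *TIMP2*. Between 26 and 30 of the protease probes were detected on each array, so the arrays differed little in this respect.

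**Figure D1:**
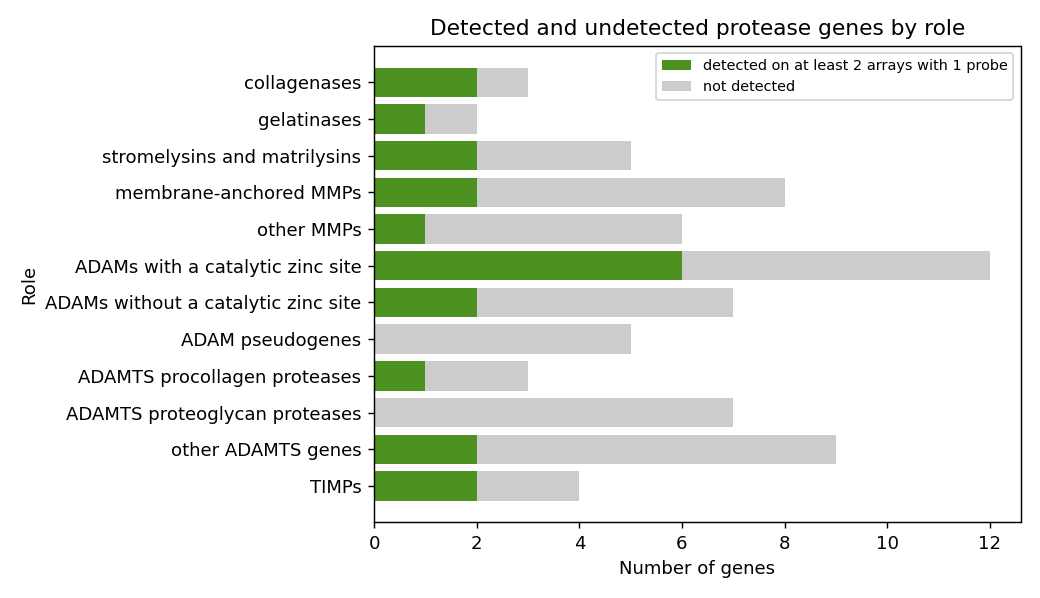
Number of protease genes (horizontal axis) by role (vertical axis), with genes that have a probe detected on at least 2 of 4 arrays in green and the others in grey. Of 12 ADAM genes with a catalytic zinc site 6 were detected, whereas 0 of 7 ADAMTS proteoglycan proteases were.

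Of the 50 undetected genes, 42 had no probe detected on any array. Among MMPs these were *MMP2* (a gelatinase), *MMP3*, *MMP7* and *MMP26* (stromelysin and matrilysins), and *MMP13* (a collagenase). Among membrane-anchored MMPs they were *MMP14*, *MMP16*, *MMP17*, *MMP24* and *MMP25*, with the pseudogene *MMP23A*. Among other MMPs they were *MMP12*, *MMP20*, *MMP21* and *MMP27*. Among ADAMs they were *ADAM8*, *ADAM18*, *ADAM20*, *ADAM23*, *ADAM28*, *ADAM29*, *ADAM30* and *ADAM33*, with the pseudogenes *ADAM3A*, *ADAM5*, *ADAM6* and *ADAM20P1*. Among ADAMTS genes they were *ADAMTS1*, *ADAMTS3*, *ADAMTS5*, *ADAMTS9*, *ADAMTS10*, *ADAMTS12*, *ADAMTS14*, *ADAMTS15*, *ADAMTS16*, *ADAMTS16-DT*, *ADAMTS18*, *ADAMTS19* and *ADAMTS20*, and among inhibitors *TIMP3* and *TIMP4*. The other 8 genes, *ADAM11*, *ADAM12*, *ADAM21P1*, *ADAM32*, *ADAMTS4*, *ADAMTS8*, *ADAMTS17* and *MMP19*, had no probe detected on more than 1 array. For *ADAM12* and *ADAM32*, 2 different probes were each detected on 1 array. Their probes did not differ clearly from background in either line, and no fold change is given for them. In the family 43 genes had a single probe. A probe can miss a gene that another probe detects, as for *ADAM19* below, so an undetected gene may still be expressed.

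The intensities show where background lay. Probes never detected read 62 to 139 on the arrays, and the lowest detected signal was 155 and 139 on the HCT116-WT arrays, against 145 and 135 on those of HCT116-MT. Both probes of *MMP7* stayed there, the first at 89 and 108 in HCT116-WT against 99 and 91 in HCT116-MT, the second at 74 and 108 against 78 and 81. *MMP14*, the membrane-type protease that activates pro-MMP2, read 122 and 100 against 114 and 124. For both genes the lines overlapped at background, so a difference between the lines was not detectable on these arrays. Of the 28 kept probes, 13 stayed under an intensity of 300 on every array, close to this floor.

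The detected proteases spanned a wide range of brightness. *TIMP1*, *TIMP2* and *ADAM15* had the brightest probes, whereas *MMP8* lay just above the floor and *ADAM2* and the ADAMTS genes lay at it, undetected on 1 or 2 arrays each. Brightness depends on the probe, so intensities are compared between arrays and not between genes.

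**Figure D2:**
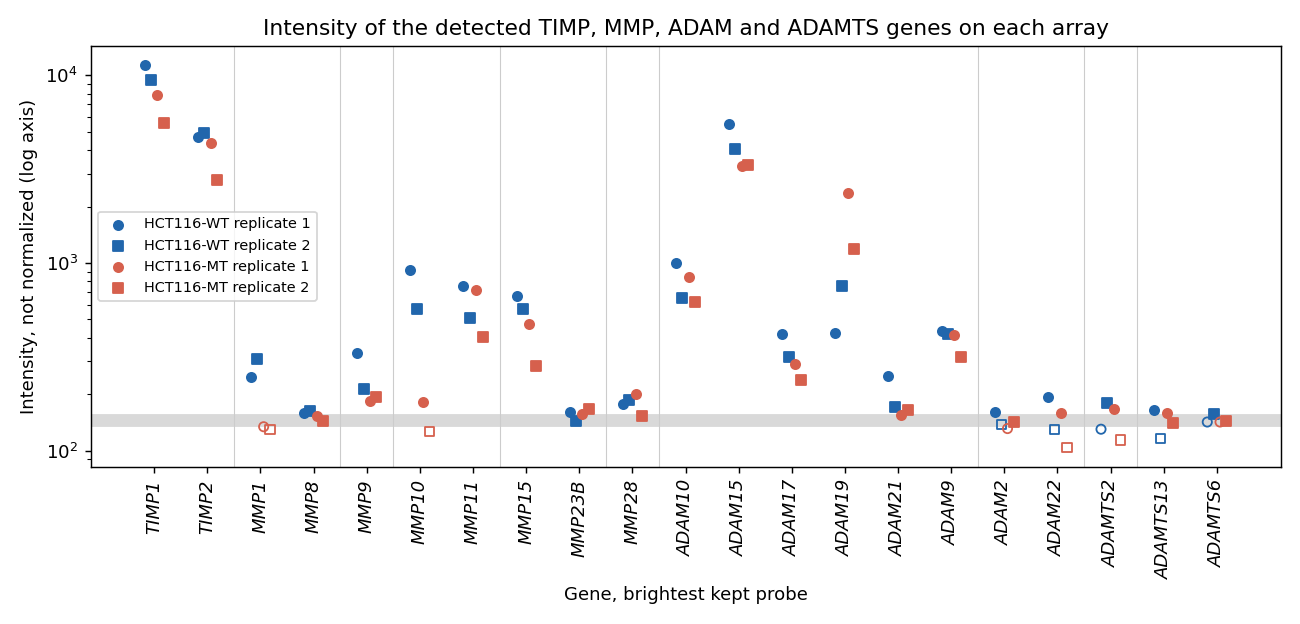
Intensity, not normalized, on a log axis for the brightest kept probe of each of the 21 detected genes, on each of the 4 arrays. Filled points were detected and open points were not, and the grey band spans the lowest detected signals of the arrays (135 to 155). *MMP10* and *MMP1* lie higher in HCT116-WT and *ADAM19* higher in HCT116-MT.

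HCT116-MT was compared with HCT116-WT by limma, a linear model with moderated variances, on log2 quantile-normalized intensities over all 20579 kept probes. At the study's thresholds (p under 0.05, taken here as unadjusted, and a fold over 1.5), 1 of the 28 protease probes was higher in HCT116-MT and 2 were lower, against 3.15% higher and 3.1% lower among all kept probes. With Benjamini-Hochberg adjustment over all kept probes 0 protease probes had an adjusted p under 0.05 (smallest 0.137, limma), against 0% higher and 0.00972% lower of all. At an unadjusted p under 0.05 alone, 1 was higher and 5 were lower by limma, with a background of 5.09% and 4.35%. The probes past the study thresholds were therefore few, and none passed after adjustment. Values below are intensities as deposited, HCT116-WT before HCT116-MT, and overlap between the lines is judged on the normalized values.

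The strongest difference was in *MMP10*, stromelysin-2, a secreted protease that degrades proteoglycans and fibronectin and activates procollagenases. Its probe read 919 and 566 in HCT116-WT against 182 and 127 in HCT116-MT, where 1 of the 2 arrays detected it, as did both of HCT116-WT. Both HCT116-WT values lay far above both HCT116-MT values. The log2 fold change was -2.13 (SE 0.24, unadjusted p = 1.46e-04, adjusted p = 0.137 with limma), and -3.15 with neqc background correction. The value of 127 lay below the lowest detected signal of its array, so the size of this fold is uncertain.

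*MMP1*, interstitial collagenase, cuts fibrillar collagens. It was detected in HCT116-WT only, at 247 and 306, against 134 and 130 in HCT116-MT, where it was not detected on either array. The lines did not overlap. Where the probe lay below the lowest detected signal of an array, that signal was taken as its limit. On the line means this put the fall of *MMP1* in HCT116-MT at 1.83-fold or more, without allowance for the spread between arrays. The fitted log2 fold change was -0.96 (SE 0.23, 95% interval -1.53 to -0.38, unadjusted p = 0.00705, adjusted p = 0.400 with limma). Without HCT116-WT replicate 2 it was -0.68. Its probe was kept only through the HCT116-WT arrays, where it was high. The fitted value was -1.78 with neqc, and *MMP1* did not pass with Student's t-test. *MMP8*, the neutrophil collagenase, lay just above the floor at 158 and 162 against 152 and 144 (log2 fold change -0.04, 95% interval -0.47 to 0.39).

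*MMP1*, *MMP8* and *MMP10* are neighbours in a cluster of MMP genes on chromosome 11. In the order of the RefSeq annotation (GRCh38.p14) the measured genes of the cluster run *MMP7*, *MMP20*, *MMP27*, *MMP8*, *MMP10*, *MMP1*, *MMP3*, *MMP12* and *MMP13*. The 3 detected genes stand side by side in its middle, and the genes to either side were undetected on all arrays. *MMP8* counts as detected through 1 of its 2 probes, the one just above the floor. Its other probe, at 74 and 73 in HCT116-WT against 67 and 63 in HCT116-MT, was undetected on every array.

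**Figure D3:**
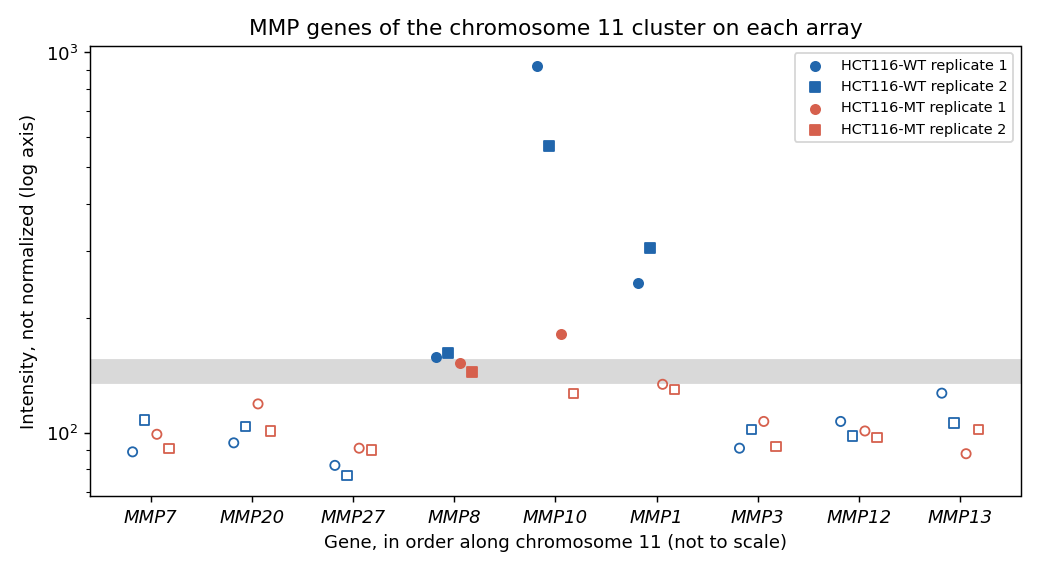
Intensity, not normalized, on a log axis on each array for the MMP genes of the chromosome 11 cluster, in gene order and with the brightest probe of each gene. Filled points were detected and open points were not, and the grey band spans the lowest detected signals of the arrays. *MMP10* and *MMP1* stand above the band in HCT116-WT, and *MMP8* lies at it in both lines.

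Among the 10 other protein-coding genes on each side of the cluster, 8 genes in all were detected, with log2 fold changes from -1.40 to 0.61 and a median of -0.07. The inflammatory caspase gene *CASP4* was lower (622 and 279 against 143 and 142, log2 fold change -1.40, unadjusted p = 0.00385 with limma) and *DCUN1D5* higher (4120 and 3356 against 5162 and 5529, log2 fold change 0.61, unadjusted p = 0.0169 with limma). These 2 genes were named after their values were seen.

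*ADAM19*, meltrin β, is a membrane protease that sheds neuregulin. It was the only protease probe called higher. It read 426 and 758 in HCT116-WT against 2373 and 1192 in HCT116-MT, so the lines did not overlap but each line's own samples differed widely. The log2 fold change was 1.69 (SE 0.46, unadjusted p = 0.0113, adjusted p = 0.421 with limma), or 3.22-fold. Without HCT116-MT replicate 1 it fell to 1.28 and no longer passed (unadjusted p = 0.0674 with limma). Without HCT116-WT replicate 1 it was 1.10 and without HCT116-WT replicate 2 it was 2.27. The second *ADAM19* probe, at 96 and 86 against 106 and 90, was not detected on any array, so the rise rests on 1 probe. *ADAM19* lies on chromosome 5, where its 8 detected neighbours had log2 fold changes from -0.63 to 0.48, 0 of them past the study thresholds.

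The promoter windows of *MMP10*, called lower, and *ADAM19*, called higher, are shown, with that of *MMP7*, an undetected gene of the same cluster, for comparison. A window of *MMP1* was not analysed here. Windows of 300 bases, 250 before the annotated start and 50 after it, were available from RefSeq for 38 of the 71 genes. Capitals mark the AP-1 motif, spelled TGANTCA. They also mark the TATA box, spelled TATAAA and searched on the gene strand only, and the PEA3 motif of ETS factors, spelled AGGAAG. The TCF/LEF motif, spelled CTTTGAT, was searched as well. All but the TATA box were searched on both strands, and no marked motifs overlap in these windows. The sequences read 5′ to 3′ on the gene strand (GRCh38.p14) and lie at chr11:102780579-102780878 for *MMP10*, chr11:102530698-102530997 for *MMP7* and chr5:157575726-157576025 for *ADAM19*, all on the minus strand.
MMP10: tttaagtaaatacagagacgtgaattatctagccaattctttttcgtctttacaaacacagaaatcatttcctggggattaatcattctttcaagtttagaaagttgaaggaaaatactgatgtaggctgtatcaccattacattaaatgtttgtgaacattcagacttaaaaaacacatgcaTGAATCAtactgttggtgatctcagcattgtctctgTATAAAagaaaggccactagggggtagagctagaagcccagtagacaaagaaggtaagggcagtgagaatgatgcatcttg
MMP7: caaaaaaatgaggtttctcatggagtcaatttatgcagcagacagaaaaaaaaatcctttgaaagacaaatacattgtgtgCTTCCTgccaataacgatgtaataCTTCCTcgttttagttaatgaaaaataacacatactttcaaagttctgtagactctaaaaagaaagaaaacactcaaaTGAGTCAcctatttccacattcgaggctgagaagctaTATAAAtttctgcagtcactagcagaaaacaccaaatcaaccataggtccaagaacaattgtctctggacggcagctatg
ADAM19: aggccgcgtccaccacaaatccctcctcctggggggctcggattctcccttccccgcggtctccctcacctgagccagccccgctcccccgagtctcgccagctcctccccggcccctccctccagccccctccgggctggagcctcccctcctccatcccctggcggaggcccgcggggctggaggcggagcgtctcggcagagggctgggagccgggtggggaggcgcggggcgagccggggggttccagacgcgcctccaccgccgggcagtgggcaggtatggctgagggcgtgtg

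*MMP10* and *MMP7* both hold an AP-1 motif 67 bases before the start, and a TATA box begins 31 and 30 bases before it. The AP-1 motif was present in 4 of the 39 protease windows (those of *MMP10*, *MMP7*, *MMP20* and *ADAMTS12*) and in 7.71% of all 35116 windows. The TATA box was present in 7 protease windows and 7.33% of all, and the PEA3 motif in 10 and 33.6%. The *ADAM19* window held none of these motifs. The TCF/LEF motif, searched only as CTTTGAT, was in 0 of the 39 windows and in 2.62% of all. This says only that these letters are not in these windows. Other spellings were not searched, and the *MMP7* window holds CTTTGAA, which differs in its last base.

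Among the remaining MMPs no probe passed the study thresholds. *MMP15*, a membrane-type MMP, came closest, at 669 and 569 against 475 and 282, with both HCT116-MT values below both HCT116-WT values (log2 fold change -0.59, 95% interval -1.21 to 0.03, unadjusted p = 0.0595 with limma). Without HCT116-MT replicate 1 it was -0.90 and passed, and without replicate 2 it was -0.28. *MMP9*, the gelatinase B gene, read 330 and 214 against 184 and 192 (log2 fold change -0.36, interval -0.86 to 0.15). *MMP11*, stromelysin-3, overlapped between the lines at 757 and 511 against 715 and 401 (log2 fold change -0.06, interval -0.73 to 0.61). *MMP23B* (0.17) and *MMP28* (0.04 with its brighter probe, 0.004 with the second kept one) were the only MMP genes with a log2 fold change above 0. *MMP23A* is a near-identical copy of *MMP23B*, so their signals may be shared.

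The sheddases *ADAM10* and *ADAM17*, which release Notch, E-cadherin and EGF family ligands, did not pass. *ADAM10* read 1006 and 651 in HCT116-WT against 844 and 623 in HCT116-MT, with overlap and a log2 fold change of 0.00 (95% interval -0.50 to 0.50). *ADAM17*, the TNF-converting enzyme, read 420 and 315 against 290 and 237 with its brighter probe (log2 fold change -0.31, interval -0.74 to 0.12) and had -0.04 with its second. These intervals leave room for a change in either direction in both genes.

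*ADAM15*, a disintegrin that binds integrins, was measured by 4 kept probes, all with HCT116-MT below HCT116-WT. The brightest read 5489 and 4029 against 3288 and 3339 (log2 fold change -0.44, unadjusted p = 0.0476 with limma), and the next 942 and 752 against 587 and 529 (-0.44, unadjusted p = 0.0405 with limma). The other 2 probes gave -0.18 and -0.11 and lay near the floor. No *ADAM15* probe reached a fold of 1.5. *ADAM9* read 435 and 417 against 415 and 314 (log2 fold change -0.09), and *ADAM21* (-0.25), *ADAM22* (-0.21) and *ADAM2* (-0.04) lay near the floor with overlapping lines.

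The 3 detected ADAMTS genes were all close to background. *ADAMTS2*, a procollagen N-proteinase, read 130 and 179 against 167 and 114. *ADAMTS13*, which cleaves von Willebrand factor, had a log2 fold change of 0.20 and *ADAMTS6* of 0.00, and all 3 overlapped between the lines.

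Of the inhibitors, *TIMP1* and the brighter *TIMP2* probe were bright in both lines. *TIMP1* read 11358 and 9448 in HCT116-WT against 7885 and 5579 in HCT116-MT, without overlap. Its log2 fold change was -0.56 (95% interval -1.05 to -0.07, unadjusted p = 0.031, adjusted p = 0.480 with limma), a 1.47-fold difference that misses the fold threshold. Without HCT116-MT replicate 1 it was -0.74 and passed. *TIMP2* overlapped, at 4677 and 4941 against 4339 and 2787 (log2 fold change -0.40, interval -1.03 to 0.24), and its second probe gave -0.40.

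**Figure D4:**
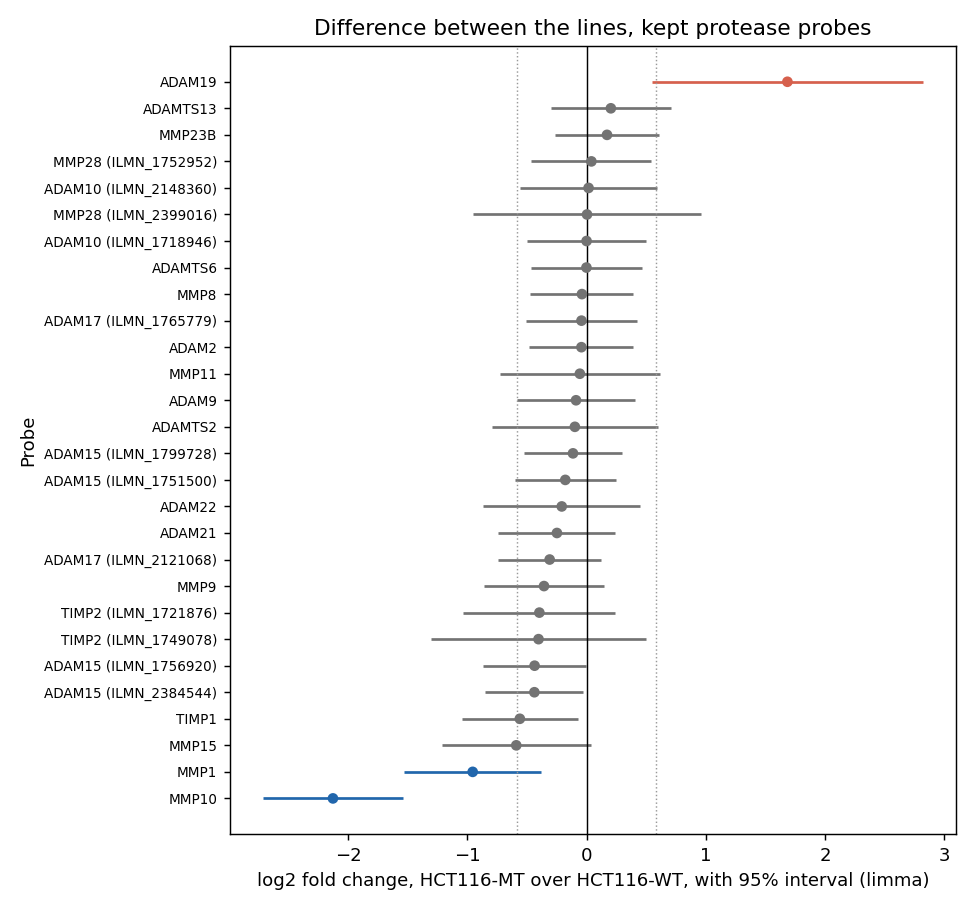
log2 fold change of HCT116-MT over HCT116-WT (horizontal axis) with its 95% interval from limma for the 28 kept protease probes (vertical axis). Dotted lines mark a fold of 1.5, red the probe called higher and blue the 2 called lower at the study thresholds. Most intervals cross 0.

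Over the family, the means of 17 of the 21 detected genes were lower in HCT116-MT and those of 4 were higher, with the brightest kept probe standing for each gene. Of all detected genes 50.04% had a lower mean. At the study thresholds 1 gene was higher and 2 were lower, beside 3.48% and 3.86% of all detected genes. The median log2 fold change was -0.10, beside 0.00 over all 11875 detected genes. It was -0.016 with no detection filter, -0.36 at a detection p under 0.01 and -0.27 without HCT116-MT replicate 1. Between the lines 10 of the 28 probes did not overlap with HCT116-MT below and 2 with HCT116-MT above, against 16.9% and 22.3% of all kept probes. Of the 10 probes, 4 belong to the single gene *ADAM15*, and that of *MMP1* was kept only through HCT116-WT. Low probes were kept only when detected, so these counts leave out the 85 probes near the floor.

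Other genes of pericellular proteolysis were read from lists of related genes. Of 106 listed genes 70 were detected. At the study thresholds 2 of these were higher and 8 were lower, beside 3.48% and 3.86% of all detected genes. The means of 49 of the 70 were lower in HCT116-MT (median log2 fold change -0.17), beside 50.04% of all detected genes. Single arrays moved these counts, to 4 higher and 14 lower without HCT116-WT replicate 2, to 1 and 4 without HCT116-MT replicate 2, and to 1 and 9 without HCT116-MT replicate 1. In the plasminogen system the urokinase receptor gene *PLAUR* was lower (2085 and 987 against 909 and 710, log2 fold change -0.70, unadjusted p = 0.0400 with limma). *SERPINF2*, the plasmin inhibitor gene, was detected and so kept through HCT116-MT only. It is 1 of the 2 counted as higher, by a fitted log2 fold change of 0.63. Its bound on the line means, 1.27-fold or more, is under the fold threshold. *PLAU* was at -0.34 and did not pass.

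Among cathepsins and cystatins 4 of 15 detected genes were lower and 0 higher, beside 3.86% and 3.48% of all detected genes. The cathepsin inhibitor gene *CST3* read 8863 and 5852 against 4155 and 2616 (log2 fold change -1.04, unadjusted p = 0.00530 with limma), and the lysosomal protease genes *CTSA* (-0.81), *CTSL* (-0.79) and *CTSB* (-0.68) were lower as well. All 4 kept the HCT116-MT values below the HCT116-WT values.

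Of 20 detected partners, activators and inhibitors of ADAM and MMP proteins, *TSPAN5*, a tetraspanin that guides *ADAM10*, was higher (634 and 481 against 1242 and 734, log2 fold change 0.94). *CD44*, a surface receptor that binds MMP9, was lower (12847 and 6789 against 4758 and 5072, -0.88), as was *SPOCK2*, a proteoglycan (-0.59). Of 19 transcription factors that act on MMP promoters *JUND*, an AP-1 subunit, was lower and 0 were higher. It read 32580 and 23427 against 18282 and 13158 (log2 fold change -0.79, unadjusted p = 0.0169 with limma). The AP-1 genes *FOSB* (-1.12), *JUNB* (-0.50), *JUN* (-0.42), *FOSL1* (-0.09) and *FOS* (-0.04) did not pass. *FOS* differed widely between the HCT116-WT arrays, at 768 and 4050. Of 6 other zinc metalloproteinases and relatives 0 passed, with *ECE1* at -0.48 and *ECE2* at 0.45. Beside these calls stand 3.48% called higher and 3.86% called lower of all detected genes. The lists were not tested against that background, and a part of *JUND* in the MMP values was not tested. Every adjusted p in these lists was above 0.05.

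Marker genes of colon epithelium and of other cell types were read on the same arrays. Both groups are cultured lines of 1 cancer, so the names of these lists do not count such cells in the samples. Colon epithelium markers summed to 38538 and 28427 in HCT116-WT against 18017 and 19768 in HCT116-MT, without normalization. *EPCAM* gave the largest part (23136 and 13960 against 8001 and 10668). Of the 8 markers 5 were detected, and *KRT18*, *VIL1* and *CDX1* were not. *CDH1* (log2 fold change -1.91) and *EPCAM* (-0.92) passed the study thresholds. *KRT19* (-0.60) and *KRT8* (-0.35) did not, and *CDX2* went the other way (0.19). Leukocyte markers summed to 3283 and 3620 against 1338 and 1482, through *CD68* (2751 and 3135 against 790 and 984). *LYZ* (log2 fold change 0.29) and *CD14* (0.06) lay near the floor and went the other way. *PTPRC* and *CD3E* were not detected on any array. Fibroblast markers summed to 1308 and 1231 against 1188 and 1193, with *COL1A1* and *PDGFRB* detected on every array. Endothelium markers summed to 418 and 367 against 361 and 323, and of these only *VWF* was detected. The part of these differences in the protease results was not tested. *CTNNB1* was expressed in both lines, with its brightest probe at 2555 and 1761 against 2893 and 2001 (log2 fold change 0.29). Within a line, a bulk array cannot tell fewer expressing cells from less RNA per cell.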

How the data were processed

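Illumina BeadChips measured RNA of both lines, 2 samples each. The authors extracted the data with the manufacturer's GenomeStudio software and deposited a non-normalized intensity for every probe on every array, with a detection p-value against negative controls. The series table was not used. Depth has no meaning for arrays, and 2 arrays per line limit the precision.

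All 47321 probes were quantile-normalized as log2 intensities. Tests covered the 20579 probes that reached a detection p-value below 0.05 on 2 or more of the 4 arrays, with limma 3.58.1 in R 4.3.3. A gene was read from its brightest kept probe. The study's integrated statistical method is not described in the sources used here, so limma stands in for it. Named were all members past the study thresholds (p under 0.05, fold over 1.5) or detected in 1 line only, examples of each role, and up to 6 genes per related list. Members, role groups and lists were chosen with earlier results of these data known. On simulated arrays with known changes, the fit was required to return those changes only without normalization. With quantile normalization the outcome was recorded, and at the largest fold simulated the fall of dim probes came out too small. Figures used matplotlib 3.10.9 in Python 3.11.15.

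Alternatives were neqc (offset 16), median scaling, cyclic loess, no normalization, 3 other detection filters, a replicate block, a variance trend, Student's t-test, the mean of a gene's probes and each array left out. Replicate numbers are shared by the lines, but same-numbered deviations correlated at 0.05 over kept probes, so they were not treated as pairs.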

Additional observations from a re-analysis of the deposited data

How the results depend on the processing

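The 2 lower protease probes, *MMP10* and *MMP1*, became 4 with cyclic loess and 5 with no normalization (*TIMP1*, *MMP15* and, in the second, an *ADAM15* probe joining), and 1 with Student's t-test, which left *MMP10* only and which the study lists among its general statistics, not for the arrays. The 1 higher probe became 0 with it. Leaving out each array in turn, with the lone sample assumed to vary like the other line, gave 0 to 1 higher and 2 to 4 lower, with the 0 and the 4 from the fit without HCT116-MT replicate 1. *MMP10* passed the study thresholds in all 14 alternatives, with log2 fold changes from -3.15 (neqc) to -1.90, and *MMP1* was -1.78 with neqc. The median log2 fold change of protease genes was -0.10 and moved to -0.19 (neqc), -0.17 (median scaling), -0.24 (no normalization, where the median of all genes was -0.12), -0.016 (no detection filter), -0.36 (detection p under 0.01) and -0.25 (detection on both arrays of a line), and ranged from -0.273 to -0.048 without single arrays. The 21 detected genes became 13 at a detection p under 0.01. The cause of these shifts was not tested. The replicate block kept 1 higher and 2 lower probes, the same genes, with an adjusted p for *MMP10* of 0.219 (limma). Related genes ranged from 1 to 4 higher and 2 to 14 lower over the alternatives.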
